A study of Mus musculus with 2 samples.

Results

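The imprinted genes are a list of 43 mouse genes that are known to be expressed mainly or only from the allele of one parent in at least some tissues. They were taken from 19 imprinted loci and matched by Ensembl gene identifier to the deposited tables, where 42 of the 43 were found among 43346 annotated genes. Peg13 was not analysed here. Of the 42 genes, 35 are protein-coding and 7 are long non-coding RNA genes. RNA sequencing was carried out on cerebellum, the hindbrain structure dominated by granule neurons, from adult C57BL/6J mice of 8 weeks, an inbred laboratory strain. There were 2 libraries, replicate 1 and replicate 2, in a single group, with no mutant, treated or control samples. Both libraries are labelled as tissue pooled from males and females and share a donor record. Separate animals or litters are not stated for them, and the spread between them may be technical. The libraries were stranded and paired-end, from polyadenylated RNA depleted of ribosomal RNA. An inbred strain carries the same alleles from both parents, so these data give the level of each gene and not the parent whose allele was transcribed.

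The sex label and the sex-linked genes differed. Xist, transcribed from the inactive X chromosome of females, had 45928 counts in replicate 1 and 26 in replicate 2, and the Y-linked gene Eif2s3y had 0 and 3776. Every comparison of the libraries is therefore also a comparison of libraries that differ in these genes, and its part in the results was not tested. The libraries held 83109117 and 84279927 estimated fragments, of which 96.0% and 95.3% fell on annotated genes. Markers of the tissue were present: the median was 281 TPM over 8 genes of granule neurons, led by Zic1 at 778, Cbln1 at 612 and Cbln3 at 378 TPM, and 230 TPM over 8 genes of Purkinje neurons, led by Pcp2 at 1467, Gad1 at 336 and Car8 at 255 TPM. TPM is a relative abundance corrected for transcript length. All 8 granule and all 8 Purkinje genes were higher in replicate 1, by a median log2 ratio of 0.24 and 0.19.

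Imprinted genes lie in clusters, and a differentially methylated imprinting control region in each cluster sets which parental allele is active. Many of these genes act on growth and on the brain. Clusters often hold a long non-coding RNA whose transcription silences neighbouring genes on the same chromosome, and several promoters within a cluster can be imprinted in opposite directions or in neurons only. Gnas, Grb10 and Inpp5f hold alternative first exons of this kind, and Ube3a has a neuronal antisense transcript.

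The alternative transcripts are distinguished by the bases that meet at a splice site. The following sequences give the last bases of a first or upstream exon of Gnas in lower case and, in capitals, the first bases of exon 2, to which all of them are joined; they were read from the GENCODE M21 transcripts, and Gnas-208 is a transcript of the stimulatory G protein alpha subunit (Gs alpha), Gnas-221 one that starts at exon 1A, Gnas-211 a Nesp transcript and Gnas-209 an XL alpha s transcript.

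Gnas-208: gcctgctgctgctggGTGCTGGAGAGTCTG

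Gnas-221: aaggagcacctaaggGTGCTGGAGAGTCTG

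Gnas-211: ttttcatggataaagGTGCTGGAGAGTCTG

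Gnas-209: gcctgctgcttctagGTGCTGGAGAGTCTG

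Grb10 transcripts in the same form differ before the capitals, which are again the first bases of a shared exon. Grb10-201 has the upstream first exon, and the other 3 start at separate exons farther along the gene.

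Grb10-201: ggagctgcacgtcagGACAAAGTGGGGCAG

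Grb10-203: tagctctgtaccttgGACAAAGTGGGGCAG

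Grb10-207: tgggctataatggggGACAAAGTGGGGCAG

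Grb10-209: tagccggctctccagGACAAAGTGGGGCAG

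In Inpp5f the capitals are likewise a shared exon, reached from the first exons of Inpp5f-203 and Inpp5f-208. In Ube3a the lower-case first exon is shared and the capitals, the first bases of the next exon, differ.

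Inpp5f-203: agttttcagaatgcaCCTCACTGACGCTGC

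Inpp5f-208: ctccagacttgcacgCCTCACTGACGCTGC

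Ube3a-201: cgggggcgaggacagATCACCAGGAGAATC

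Ube3a-203: cgggggcgaggacagGTTAAAAAATCTCTC

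Ube3a-209: cgggggcgaggacagAATTATTAAGCCTAC

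Most imprinted genes were expressed. At 1 TPM or more in both libraries were 29 of the 35 protein-coding genes, against 60.9% of all 21474 protein-coding genes, and 7 of the 7 long non-coding genes, against 11.6% of all 5694. At 10 TPM or more were 22 of the 35, against 40.0%, and 5 of the 7, against 1.95%. At 100 TPM or more in both libraries were 7 of the 35 coding genes, against 5.71% of all coding genes, and 4 of the 7 non-coding genes, against 0.263%. The median over the 42 genes was 23.4 TPM, beside 4.77 TPM over all coding genes. Over the 7 non-coding genes it was 140 TPM, against 0.00500 TPM over all non-coding genes. Together the imprinted genes took up 1.02% and 1.05% of all counts on genes in replicate 1 and replicate 2. The list was chosen with results of these data known, so these shares describe it and support no statement about imprinted genes in general.

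**Figure D1:**
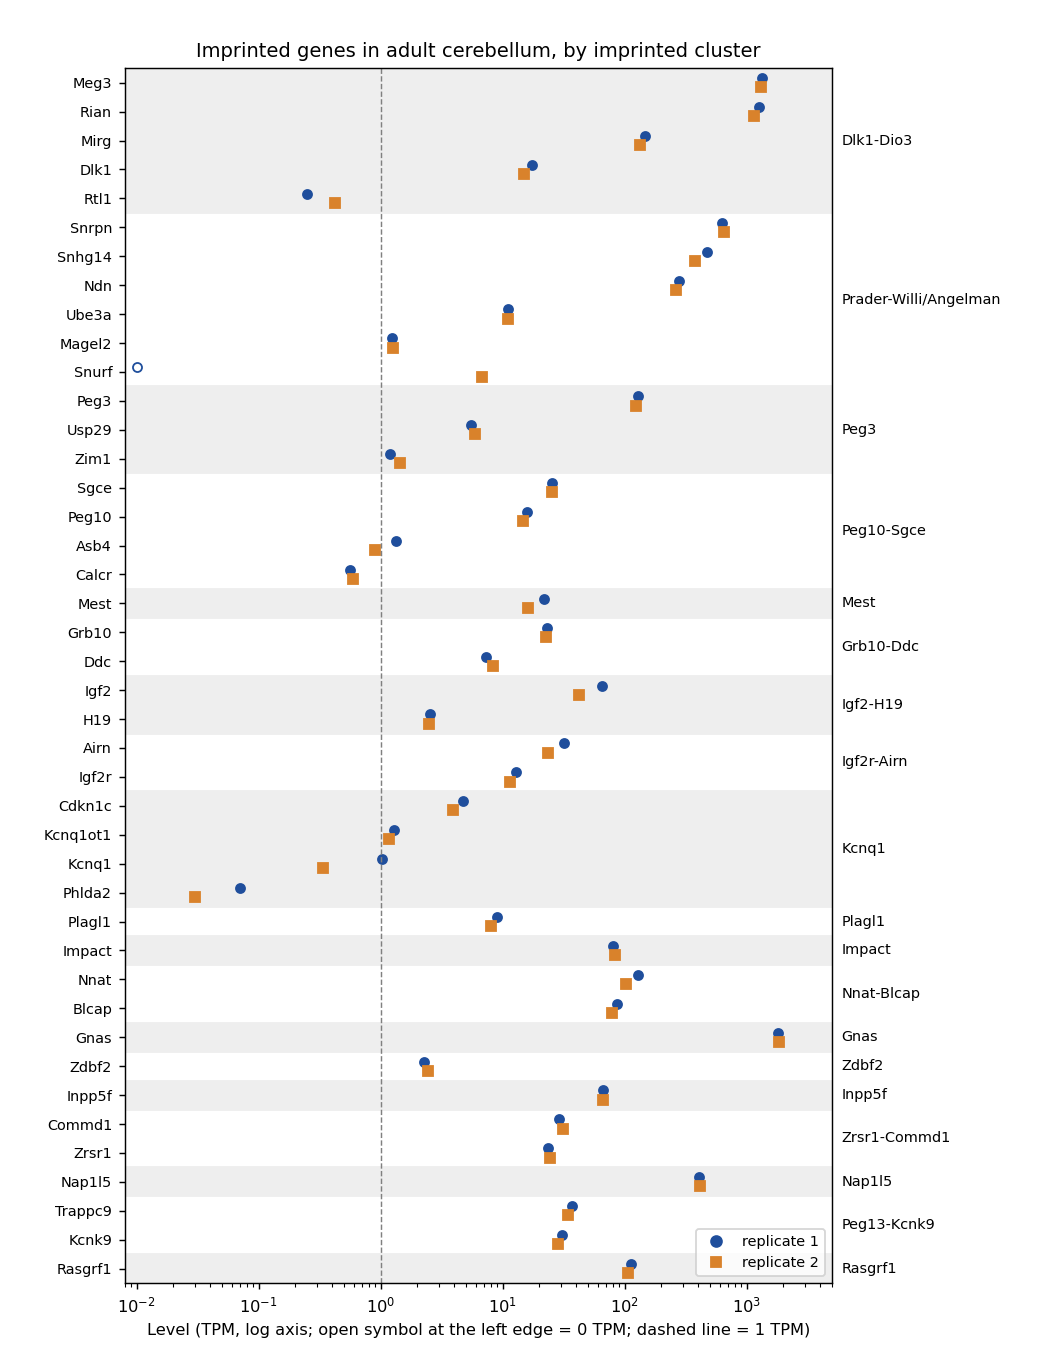
Level of each imprinted gene in TPM (log axis) in replicate 1 (circles) and replicate 2 (squares), ordered by locus. Gnas, Meg3 and Rian stand highest in both libraries, the lowest of these values being 1143 TPM, while Snurf is at 0 in replicate 1 and Phlda2 at 0.07 and 0.03 TPM.

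The Dlk1-Dio3 cluster of chromosome 12 contributed the largest summed level of any locus, 2747 TPM in replicate 1 and 2593 TPM in replicate 2, nearly all of it from its maternally expressed non-coding RNAs. Meg3 (ENSMUSG00000021268.13, mm10 chr12:109541001-109571726), a long non-coding RNA, was at 1324 TPM and 1302 TPM, and ranked 2 of 5694 long non-coding genes. Rian, which hosts small nucleolar RNAs, was at 1258 TPM and 1143 TPM and ranked 4. Mirg, the host of a large microRNA cluster, was at 147 TPM and 133 TPM. All 3 differed little between the libraries, with log2 ratios of -0.07, 0.05 and 0.08. The paternally expressed coding genes of the cluster were lower. Dlk1, which encodes a transmembrane inhibitor of differentiation related to Notch ligands, was at 17.4 TPM and 15.0 TPM. Rtl1, a retrotransposon-derived gene needed in the placenta, was at 0.25 TPM and 0.42 TPM, from 83 and 145 counts.

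Rtl1 (ENSMUSG00000085925.2, mm10 chr12:109589193-109600330) is transcribed opposite to the non-coding RNAs. In the deposited mm9 contigs, which are stretches of continuous coverage pooled over both libraries, 98.3% of the Rtl1 span was covered on the antisense strand at a mean depth of 251, and the sense strand held 0 contigs. Over Meg3 the sense strand was covered over 99.7% of the span at a mean depth of 2622, and the antisense strand over 0.176%. From RefSeq (GRCm38.p6), 11 mature microRNAs encoded on that antisense strand are exactly complementary to the Rtl1 transcript, and their 11 seeds (bases 2 to 8, in capitals) all differ. MicroRNAs themselves were not measured here. Of the 11, 4 are shown as RNAs encoded on the strand that carried the coverage.

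mmu-miR-127-3p: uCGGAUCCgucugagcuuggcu

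mmu-miR-136-5p: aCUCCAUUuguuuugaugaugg

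mmu-miR-431-5p: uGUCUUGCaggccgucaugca

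mmu-miR-434-3p: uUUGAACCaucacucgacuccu

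The site of mmu-miR-127-3p in the Rtl1 transcript begins at base 2642 and shows the complement of the seed in capitals.

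Rtl1 site of mmu-miR-127-3p: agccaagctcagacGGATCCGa

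By the same annotation, the sense strand of Mirg encodes 26 mature microRNAs, that of Rian 6 and that of Meg3 3.

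The Prader-Willi/Angelman region of chromosome 7 summed to 1392 TPM and 1309 TPM. Its paternally expressed genes held most of that. Snrpn (ENSMUSG00000102252.1, mm10 chr7:59982495-60140219), which encodes the neuronal splicing protein SmN, was at 628 TPM and 653 TPM and ranked 105 of 21474 coding genes. Snurf, the upstream reading frame of the same locus, was listed at 0 TPM in replicate 1 and 6.81 TPM in replicate 2, from 0 and 8 counts over a transcript of 216 nucleotides. Snurf lies within Snrpn, so reads can be shared and its value is uncertain. Snhg14, the long host RNA that is antisense to Ube3a and carries small nucleolar RNAs, was at 473 TPM and 375 TPM and ranked 7 of the long non-coding genes. Ndn, which encodes the growth suppressor necdin, was at 279 TPM and 261 TPM. Magel2, its relative in the MAGE family, was at 1.25 TPM and 1.26 TPM. Within this region Snrpn and Snhg14 exceeded Ndn in both libraries, and Magel2 lay lowest apart from Snurf in replicate 1.

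Ube3a (ENSMUSG00000025326.8, mm10 chr7:59228750-59311536), the ubiquitin ligase gene that neurons express from the maternal allele, was at 11.0 TPM in both libraries, from 2855 and 3015 counts. The mm10 quantification held a single Ube3a transcript, ENSMUST00000107537 of 5097 nucleotides, so it gives no isoform shares. The mm9 tables (Ensembl 65) held 2 transcript models over the same span, of 4910 and 5097 nucleotides. By the authors' deposited RPKM, a read density scaled for length and depth, the shorter model ENSMUST00000085231 was at 1.26 and 1.14 and ENSMUST00000107537 at 0.164 and 0.342. The replicate numbers of the mm9 tables name no library, so the first and second value are not assigned to replicate 1 and replicate 2.

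Splice junctions out of the first exon of Ube3a gave the same order of the 2 models. The junction of ENSMUST00000085231, with an intron of 17901 bases, took 180 of 253 reads (71.1%, 95% exact binomial interval 65.1 to 76.6%). The junction of ENSMUST00000107537, with an intron of 11695 bases, took 30 reads (11.9%, 8.15 to 16.5%). Another 39 reads (15.4%, 11.2 to 20.5%) spanned an intron of 14078 bases that no Ensembl 65 transcript of Ube3a uses. In GENCODE M21 the identifier ENSMUST00000107537 stands for Ube3a-201, of 4911 nucleotides, and thus for another structure than in Ensembl 65. There a first intron of 17901 bases belongs to Ube3a-201, one of 11695 bases to Ube3a-203 and one of 14078 bases to Ube3a-209, whose splice sequences are given above. Intervals cover counting error only, and the reads carry no molecular identifiers.

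Both strands of the Ube3a locus were spliced. Counting junctions with 5 or more reads, on the sense strand 17, 13 of them annotated, held 2254 reads. On the antisense strand 21 junctions held 1303 reads. Annotation was looked up only among the Ensembl 65 transcripts of Ube3a itself. Antisense junctions could not match these, so whether they are annotated was not examined. The strongest antisense junctions held 320, 262, 230 and 226 reads. Contigs covered 93.2% of the Ube3a span on the antisense strand at a mean depth of 91.3, and 80.2% on the sense strand at a mean depth of 41.8. The antisense strand of Gnas held 2 junctions of 5 or more reads, with 40 reads. For Gnas only junctions wholly within the gene were counted, while for Ube3a those reaching beyond it were included. The antisense Ube3a junctions with 230 and 226 reads are of that kind, so the counts of the 2 genes are not directly comparable.

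**Figure D2:**
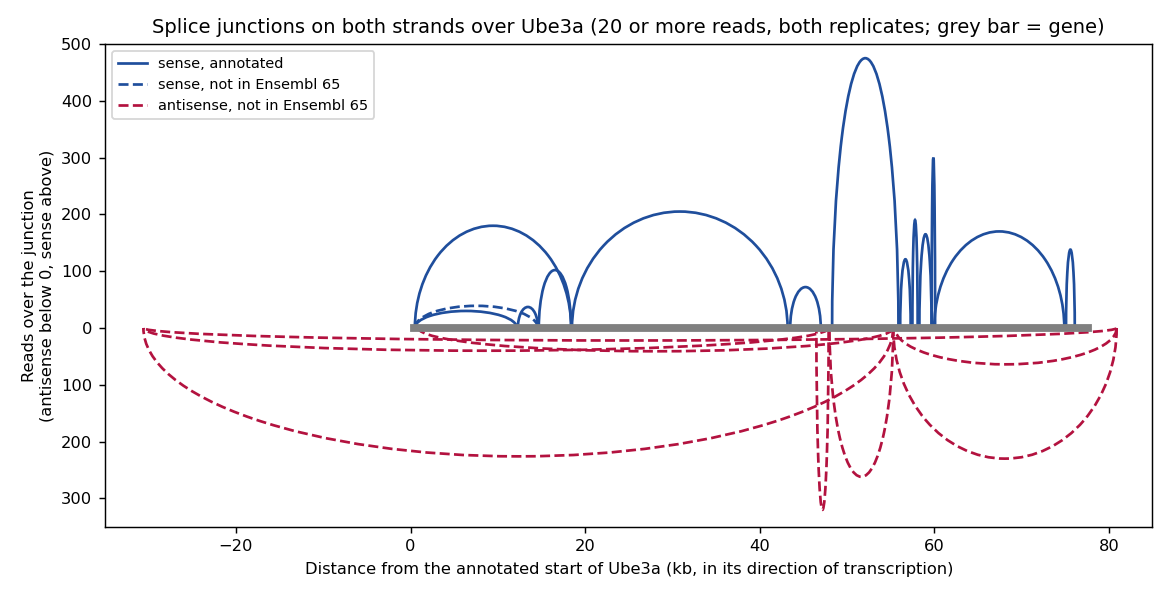
Splice junctions with 20 or more reads over Ube3a, drawn as arcs from donor to acceptor against the distance from the annotated gene start in kb (mm9), with arc height giving reads of both libraries, sense above and antisense below. Solid arcs are annotated and dashed arcs are not. The strongest sense arc has 475 reads and the strongest antisense arc 320.

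Gnas (ENSMUSG00000027523.15, mm10 chr2:174284320-174346744) was the most abundant imprinted gene, at 1808 TPM and 1852 TPM, and ranked 18 of 21474 coding genes. Its upstream first exons encode or accompany Nesp, a maternally expressed secretory protein, XL alpha s, a paternally expressed large form of the G protein subunit, and exon 1A, a paternal non-coding start. Transcripts that start at the Gs alpha exon, which is expressed from both alleles in most tissues, held 89.4% of Gnas TPM in replicate 1 and 90.0% in replicate 2. Exon 1A transcripts held 7.24% and 7.07%, Nesp transcripts 2.62% and 2.35%, and XL alpha s transcripts 0.0393% and 0.0356%.

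Junction reads into exon 2 of Gnas gave shares of the same order. Of 29951 reads, 27301 came from the Gs alpha exon (91.2%, 90.8 to 91.5%) and 1833 from exon 1A (6.12%, 5.85 to 6.40%). From Nesp came 663 reads (2.21%, 2.05 to 2.39%) and from XL alpha s 37 (0.124%, 0.0870 to 0.170%), of which 26 came straight from its first exon and 11 through the second exon of ENSMUST00000154658. The shares by the 2 measures lay outside the counting intervals of the junction reads for Gs alpha, exon 1A and XL alpha s, and the Nesp share of replicate 2 lay within them. The order of the 4 kinds of first exon was the same by both measures.

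Single transcripts of Gnas had the following shares of gene TPM. Gnas-208 held 77.2% and 75.6%, Gnas-205 9.13% and 11.2%, and Gnas-221, which starts at exon 1A, 4.81% and 4.63%. Gnas-207, Gnas-206, Gnas-211, Gnas-214 and Gnas-217 held between 0.854% and 1.84% each. Exon 3 is the alternative exon that separates the long from the short Gs alpha. From exon 2, 29576 of 30273 junction reads (97.7%) went to exon 3, while 461 (1.52%) and 208 (0.687%) skipped it to acceptors that lie 3 bases apart. From the annotated end of exon 3, 15947 of 21843 reads (73.0%) went on to the next shared exon. Another 5884 (26.9%, 26.4 to 27.5%) went to an exon of annotated transcripts that include exon 3, among them ENSMUST00000109083 (Gnas-205, 730 nucleotides). These are not the short Gs alpha, which skips exon 3. A further 1300 reads ran from a donor next to that end to an acceptor near the next shared exon. They are not part of these shares or their interval.

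**Figure D3:**
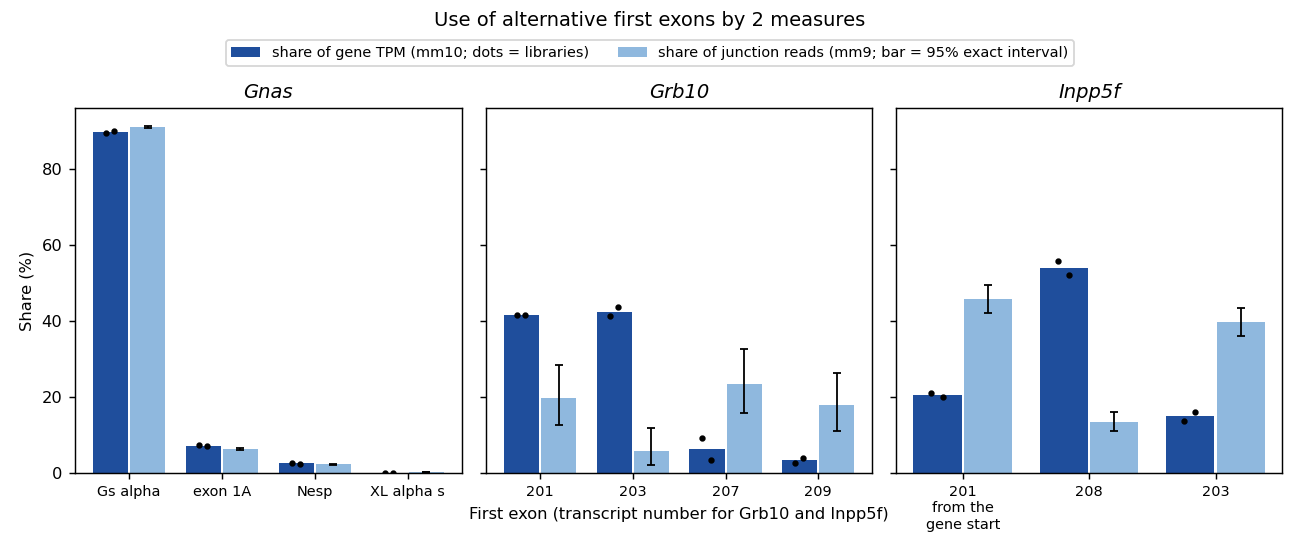
Share of gene TPM in mm10 (dark bars, mean of 2 libraries, dots for each library) and share of junction reads into a shared exon in mm9 (light bars, with 95% exact binomial intervals) for the first exons of Gnas, Grb10 and Inpp5f. The 2 measures lie close for Gnas and apart for Grb10 and Inpp5f.

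Grb10 (ENSMUSG00000020176.13, mm10 chr11:11930508-12038683) encodes an adaptor protein that inhibits insulin and growth factor receptors. It is known to be expressed from the maternal allele in most mouse tissues, from an upstream promoter, and from the paternal allele in neurons, from downstream promoters. Its level was 22.9 TPM and 22.7 TPM. By TPM, Grb10-203 held 41.3% and 43.6%, Grb10-201 41.5% and 41.5%, Grb10-207 9.03% and 3.44%, Grb10-205 3.49% and 3.93%, Grb10-209 2.49% and 3.97%, and Grb10-204 1.96% and 3.35%. Which of Grb10-201 and Grb10-203 led differed between the libraries.

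Junction reads of Grb10 gave another picture than TPM. Of 107 reads into the shared exon, 21 came from the upstream exon of Grb10-201 (19.6%, 12.6 to 28.4%) and 6 from the first exon of Grb10-203 (5.61%, 2.09 to 11.8%). From the exon of Grb10-207 came 25 reads (23.4%, 15.7 to 32.5%) and from that of Grb10-209 19 (17.8%, 11.0 to 26.3%). A further 18 (16.8%) and 14 (13.1%) came from donors that no Ensembl 65 transcript of Grb10 uses. Grb10-203 also omits an internal exon that Grb10-201 includes: of 84 reads out of the exon before it, 75 entered it (89.3%) and 5 skipped it (5.95%, 1.96 to 13.3%). The skipping reads were 0 in the first and 5 in the second mm9 replicate, while those that entered were 37 and 38. The junction shares of Grb10-201 and Grb10-203 were thus below their TPM shares, with both TPM shares above the intervals. Grb10-207 and Grb10-209 are annotated as short fragments of 430 and 940 nucleotides, whose TPM rests on few counts (25.6 and 9.99, and 22.3 and 37.2).

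The promoter windows of the upstream start and of the downstream start of Grb10-203 differ in base composition. RefSeq (GRCm38.p6) gives a window of 300 bases at each, from 250 before to 50 after the start, on the minus strand. The upstream one, chr11:12037371-12037670, has 80.0% G and C and 45 CpG dinucleotides, and the downstream one, chr11:12027922-12028221, 52.3% and 9. The capitals mark TGCCGC on either strand (GCGGCA as read here), the motif bound by ZFP57, a zinc finger protein that keeps methylation at imprinting control regions. It is present 1 time in the upstream window and 0 times in the downstream one. The start of Grb10-203 took 5.61% of the junction reads into the shared exon. The starts of Grb10-207 (23.4%) and Grb10-209 (17.8%) had no window here, so their promoter sequence was not examined.

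Grb10 upstream window: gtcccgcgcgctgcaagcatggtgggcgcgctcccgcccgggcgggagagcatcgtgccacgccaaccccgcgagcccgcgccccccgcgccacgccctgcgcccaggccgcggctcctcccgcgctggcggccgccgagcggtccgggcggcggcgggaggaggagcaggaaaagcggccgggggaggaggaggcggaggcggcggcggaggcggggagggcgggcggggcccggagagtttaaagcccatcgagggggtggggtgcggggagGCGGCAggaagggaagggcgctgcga

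Grb10 downstream window: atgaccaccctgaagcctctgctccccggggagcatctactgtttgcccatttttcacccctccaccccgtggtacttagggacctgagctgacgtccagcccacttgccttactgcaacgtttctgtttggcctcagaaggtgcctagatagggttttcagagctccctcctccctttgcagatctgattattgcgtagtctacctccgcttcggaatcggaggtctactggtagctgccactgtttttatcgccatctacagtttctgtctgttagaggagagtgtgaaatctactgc

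Over all imprinted genes, 13 of 49 promoter windows (26.5%) held the motif on either strand, against 3809 of 32817 windows of all genes (11.6%). The windows came from 33 of the 43 genes, several have more than 1 window, those of Peg3 and Usp29 share 263 bases, and the 2 Mest windows that hold the motif share 297. The motif contains a CpG, and the imprinted windows held a median of 14 CpG dinucleotides, against 7 over all windows. A match is a description of the letters and says nothing about binding. Ddc, the neighbour of Grb10 that encodes aromatic amino acid decarboxylase, was at 7.30 TPM and 8.27 TPM. The 8 markers of noradrenergic and serotonergic neurons, cells that use this enzyme, reached at most 4.38 TPM (Tph2), followed by Dbh at 3.92 and Slc18a2 at 3.26 TPM, with a median of 2.73 TPM. Ddc-202 held 93.4% and 95.8% of its TPM.

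In the Peg3 domain of chromosome 7, Peg3 (ENSMUSG00000002265.11, mm10 chr7:6703892-6730431), a paternally expressed zinc finger gene with roles in growth and maternal behaviour, was at 128 TPM and 124 TPM. Contigs covered 100% of its span on the sense strand at a mean depth of 871 and 0.769% on the antisense strand. Usp29, a paternally expressed gene of the ubiquitin protease family transcribed divergently from it, was at 5.53 TPM and 5.90 TPM. Zim1, a maternally expressed zinc finger gene, was at 1.20 TPM and 1.44 TPM. The domain was thus dominated by a single gene, with Peg3-201 holding 82.8% and 83.7% of Peg3 TPM.

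The Peg10-Sgce domain of chromosome 6 holds genes of both parental directions. Sgce, which encodes epsilon-sarcoglycan and is mutated in myoclonus-dystonia in humans, was at 25.5 TPM and 25.4 TPM. Peg10, a retrotransposon-derived gene, was at 15.9 TPM and 14.7 TPM, and 54 of 55 junction reads into its shared exon came from a single first exon. The paternally expressed pair exceeded both maternally expressed genes of the domain. Asb4, a component of ubiquitin ligases, was at 1.34 TPM and 0.90 TPM, and Calcr, the calcitonin receptor gene, at 0.56 TPM and 0.59 TPM.

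Mest, a paternally expressed gene of a hydrolase-like protein, was at 21.8 TPM and 16.2 TPM. Of 133 reads into its shared exon, 131 (98.5%, 94.7 to 99.8%) came from the first exon of ENSMUST00000163949 (Mest-211). Transcripts that start there (Mest-202, Mest-204 and Mest-211) held 83.5% and 84.7% of Mest TPM, and Mest-211 alone 48.0% and 55.9%. The promoter window at that start (chr6:30737800-30738099, plus strand, GRCm38.p6) holds the ZFP57 motif 2 times, in capitals.

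Mest window: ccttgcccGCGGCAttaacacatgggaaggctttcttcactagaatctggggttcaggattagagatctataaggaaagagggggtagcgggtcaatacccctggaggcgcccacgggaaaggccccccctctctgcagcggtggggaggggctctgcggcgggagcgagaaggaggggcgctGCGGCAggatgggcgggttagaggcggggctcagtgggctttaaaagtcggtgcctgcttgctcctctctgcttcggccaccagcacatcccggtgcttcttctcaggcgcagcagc

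Plagl1, a zinc finger gene of the imprinted gene network that is expressed from the paternal allele, was at 8.91 TPM and 8.00 TPM. Of the 25 annotated transcripts of Plagl1, the most of any imprinted gene here, Plagl1-202 held 76.7% and 78.0%. Of 37 junction reads into its shared exon, 32 came from a single donor.

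Igf2 and H19 share enhancers and an imprinting control region on chromosome 7. Igf2 (ENSMUSG00000048583.12, mm10 chr7:142650766-142666816), the fetal growth factor gene that stays expressed after birth in choroid plexus and leptomeninges, was at 65.5 TPM in replicate 1 and 42.5 TPM in replicate 2. H19, the maternally expressed non-coding RNA, was at 2.56 TPM and 2.48 TPM. By TPM, Igf2-208 held 47.5% and 56.5% of Igf2, and Igf2-201 29.2% and 30.9%. By counts the order was the other way. Igf2-208, annotated as a processed transcript of 958 nucleotides, held 22.0% and 25.4%. The protein-coding Igf2-201, of 3708 nucleotides, held 62.3% and 64.3%. Of 388 junction reads into the shared exon, 342 (88.1%, 84.5 to 91.2%) came from the first exon of Igf2-201, a donor that Ensembl 65 also gives to Igf2-208, and 30 (7.73%, 5.28 to 10.9%) from that of Igf2-205.

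Igf2 was higher in replicate 1, as were markers of 2 tissues that adjoin the cerebellum. All 8 granule and all 8 Purkinje genes were higher there too, and 2 libraries can show a shared direction only. All 12 choroid plexus genes were higher in replicate 1, with summed levels of 2452 TPM and 981 TPM, led by Ttr at 2086 TPM and 763 TPM, Enpp2 at 305 TPM and 191 TPM and Folr1 at 12.2 TPM and 5.08 TPM. All 12 meningeal fibroblast genes were also higher in replicate 1, with summed levels of 1730 TPM and 1425 TPM, led by Ptgds at 1629 TPM and 1350.1 TPM, Igfbp2 at 51.5 TPM and 40.0 TPM and Dcn at 15.7 TPM and 12.2 TPM. No marker of either list was at 0. The 8 endothelial genes, led by Ly6c1 at 108, Cldn5 at 43.3 and Slco1a4 at 28.7 TPM, had a median log2 ratio of -0.12. The part of these tissues in the Igf2 level was not tested, and in bulk tissue fewer cells of a type and less RNA per cell cannot be told apart.

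On chromosome 17, Igf2r, the maternally expressed receptor gene that clears IGF2, was at 12.9 TPM and 11.5 TPM. Airn (ENSMUSG00000078247.3, mm10 chr17:12741311-12860136), the paternal antisense RNA that silences Igf2r outside neurons, was at 31.6 TPM and 23.5 TPM and ranked 52 of the long non-coding genes. Contigs covered 99.4% of the Airn span on its own strand at a mean depth of 50.6, and 95.2% of the Igf2r span on the strand of Igf2r at a mean depth of 35.0. Both strands were thus covered in this tissue. Whether the authors' counting used strand is not given in the sources used here. Over Rtl1, the antisense contigs held 2751415 aligned bases of both libraries and the sense strand none, while the deposited counts of Rtl1 were 83 and 145.

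In the Kcnq1 domain of chromosome 7 the 4 genes lay between 0.03 and 4.76 TPM. Cdkn1c, a maternally expressed inhibitor of the cell cycle, was at 4.76 TPM and 3.91 TPM. Kcnq1ot1, the paternal antisense RNA that silences the domain, was at 1.28 TPM and 1.17 TPM over a transcript of 84395 nucleotides, from 5709 and 5524 counts. Kcnq1, a potassium channel gene, was at 1.02 TPM and 0.34 TPM, from 86 and 53 counts. Its posterior mean TPM was 6.73 and 6.79, with the authors' intervals (1.41 to 14.5, and 0.792 to 15.5) lying above its TPM, so its level is uncertain. Contigs on the strand of Kcnq1 covered 3.41% of its span at a mean depth of 4.54, and those on the opposite strand, from which Kcnq1ot1 is read, 37.7% at 24.9. Phlda2, a gene that limits placental growth, was at 0.07 TPM and 0.03 TPM, from 2 and 1 counts.

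**Figure D4:**
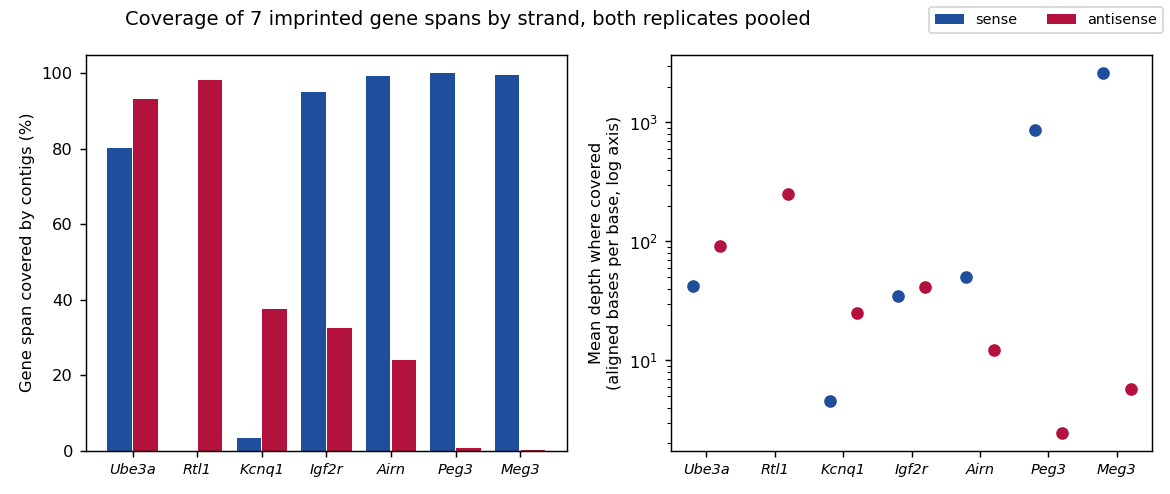
Percent of each gene's span covered by contigs (left) and mean depth of the covered bases (right, log axis) on the sense (blue) and antisense (red) strand for 7 imprinted genes, mm9, both libraries pooled. Ube3a, Rtl1 and Kcnq1 have more antisense than sense coverage, whereas Peg3 and Meg3 have antisense coverage below 1%.

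The remaining loci hold 1 or 2 of the measured genes each. Nap1l5, a paternally expressed retrogene of the nucleosome assembly protein family, was at 406 TPM and 414 TPM and ranked 204 of the coding genes. Nnat, which encodes the membrane protein neuronatin and lies in an intron of Blcap, was at 129.6 TPM and 103 TPM. Blcap, named for its loss in bladder cancer, was at 86.9 TPM and 78.6 TPM. Rasgrf1, a guanine nucleotide exchange factor for Ras in neurons, was at 112 TPM and 107 TPM. These 4 genes lay between percentiles 92.3 and 99.1 of all coding genes. Nnat was covered over 100% of its span on both strands, at a mean depth of 1114 sense and 378 antisense, the second being the strand of Blcap.

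Impact, a paternally expressed regulator of the translation kinase GCN2, was at 79.8 TPM and 83.1 TPM. Trappc9, a subunit of a vesicle trafficking complex, was at 37.0 TPM and 34.0 TPM. Kcnk9, a leak potassium channel gene expressed from the maternal allele in brain, was at 30.7 TPM and 28.3 TPM. Commd1, a regulator of copper handling, was at 29.1 TPM and 31.1 TPM. Zrsr1, a paternally expressed retrogene of a splicing factor inside Commd1, was at 23.5 TPM and 24.6 TPM. Zdbf2, a paternally expressed zinc finger gene, was at 2.25 TPM and 2.45 TPM. Apart from Zdbf2 these genes stood between 23.5 and 83.1 TPM in the 2 libraries.

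Inpp5f (ENSMUSG00000042105.14, mm10 chr7:128611328-128696425) encodes an inositol phosphatase, and in mouse brain a variant from an internal first exon is expressed from the paternal allele. Its level was 65.9 TPM and 66.1 TPM. By TPM the short Inpp5f-208 led, with 55.8% and 52.2%, ahead of transcripts from the gene start (Inpp5f-201 and Inpp5f-202) with 21.1% and 20.0% and Inpp5f-203 with 13.6% and 16.1%. Junction reads into the exon they share gave another order: 331 of 724 came from the exon chain of Inpp5f-201, which Inpp5f-206 also uses (45.7%, 42.0 to 49.4%), 287 from the first exon of Inpp5f-203 (39.6%, 36.1 to 43.3%) and 97 from that of Inpp5f-208 (13.4%, 11.0 to 16.1%).

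Splicing was read to very different depths among the imprinted genes. The strongest annotated junction held 51618 reads in Gnas, 19983 in Meg3 and 4882 in Rasgrf1, and 14 in Kcnq1, 19 in Calcr and 23 in Zdbf2.

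Other imprinted genes differed in how far a single transcript led. By mm10, 12 genes have 1 transcript and 30 have more, of which 28 had the same leading transcript in both libraries. The exceptions were Grb10 and Trappc9, where Trappc9-202 held 53.2% and 44.4% and Trappc9-201 42.1% and 50.4%. The leading transcript held 50% or more in both libraries for 19 of the 30. Snrpn-201 held 99.5% and 99.5%, Igf2r-201 91.5% and 94.4%, Blcap-202 88.4% and 91.4%, Rasgrf1-202 85.4% and 86.9% and Nnat-202 71.2% and 68.8%. At the other end, Meg3-209 held 23.3% and 24.0%, Rian-213 24.5% and 27.2%, Snhg14-203 20.4% and 20.6% and Commd1-203 32.9% and 34.2%. The non-coding hosts were thus spread over many annotated transcripts, of which Meg3 had 11, Rian 19 and Snhg14 15. The single leading transcript of Meg3 has 14548 nucleotides and held 79.6% and 80.9% of Meg3 counts. The shares of Kcnq1, on 86 and 53 counts, depended on the measure. Kcnq1-201 led at 52.9% and 97.1% of TPM, held 94.4% and 99.1% of counts, and held 8.01% and 4.57% of posterior mean TPM, where Kcnq1-205 led with 51.0% and 57.9% on 0 counts. Kcnq1-207, at 43.1% and 0% of TPM, had 2 and 0 counts. Between these ends, leading transcripts held 52.1% and 55.3% of Mirg (Mirg-207), 53.8% and 53.0% of Peg10 (Peg10-203), 43.8% and 43.5% of Sgce (Sgce-205), 52.7% and 44.4% of Dlk1 (Dlk1-205) and 40.1% and 44.2% of Airn (Airn-204). Low genes gave less even shares, as in H19 (H19-202, 70.8% and 94.8%), Cdkn1c (Cdkn1c-201, 55.9% and 71.1%), Calcr (Calcr-205, 73.2% and 83.3%) and Asb4 (Asb4-201, 87.3% and 100%), while Zim1-201 held 92.5% and 86.1% and Zdbf2-201 81.4% and 82.9%.

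The libraries were compared by their ratio of TMM-scaled counts. With at least 10 counts over both libraries, 40 genes could be compared, and 2 of them (5.00%), Kcnq1 and Rtl1, were 1.5-fold or more apart, against 9.54% of 19694 genes. With at least 100 counts the same 2 of 40 were past that fold, against 2.71% of 15543 genes, so which share was the higher depended on the minimum. Kcnq1 was past it on the side of replicate 1, where 5.25% of all genes lay, with a ratio of replicate 1 over replicate 2 of 1.61 (95% exact interval 1.15 to 2.35, log2 ratio 0.69). Rtl1 was past it on the side of replicate 2, where 4.30% of all genes lay, with a ratio of 0.583 (0.435 to 0.761, log2 ratio -0.78). Both genes had at most 145 counts in a library. The sense strand of Rtl1 held 0 contigs, so the strand its counts came from, and with it the meaning of its ratio, is uncertain. With a single group, no test of a condition could be made and no p-value is given. Regardless of sign, the median log2 ratio was 0.09 over the 40 genes, against 0.12 over all genes, and 21 of the 40 were higher in replicate 1 and 19 in replicate 2.

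Igf2 came closest to the threshold among well-counted genes. It had 5705 counts in replicate 1 and 4012 in replicate 2, a ratio of 1.43 (1.38 to 1.49, log2 ratio 0.52), and by the ratio of TPM plus 1 it passed it, with a log2 ratio of 0.61. In TMM-scaled counts, 11 of the 12 choroid plexus genes were 1.5-fold or more higher in replicate 1, with a median log2 ratio of 1.15, and 4 of the 12 meningeal genes, with a median of 0.34. The next largest ratios among imprinted genes were 0.38 for Asb4, 0.35 for Airn, 0.28 for Nnat, 0.22 for Snhg14 and 0.22 for Cdkn1c on the side of replicate 1, and -0.31 for Zim1 and -0.26 for Ddc on the side of replicate 2. Gnas (-0.08), Meg3 (-0.07), Peg3 (-0.03) and Ndn (0.03) lay near 0.

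**Figure D5:**
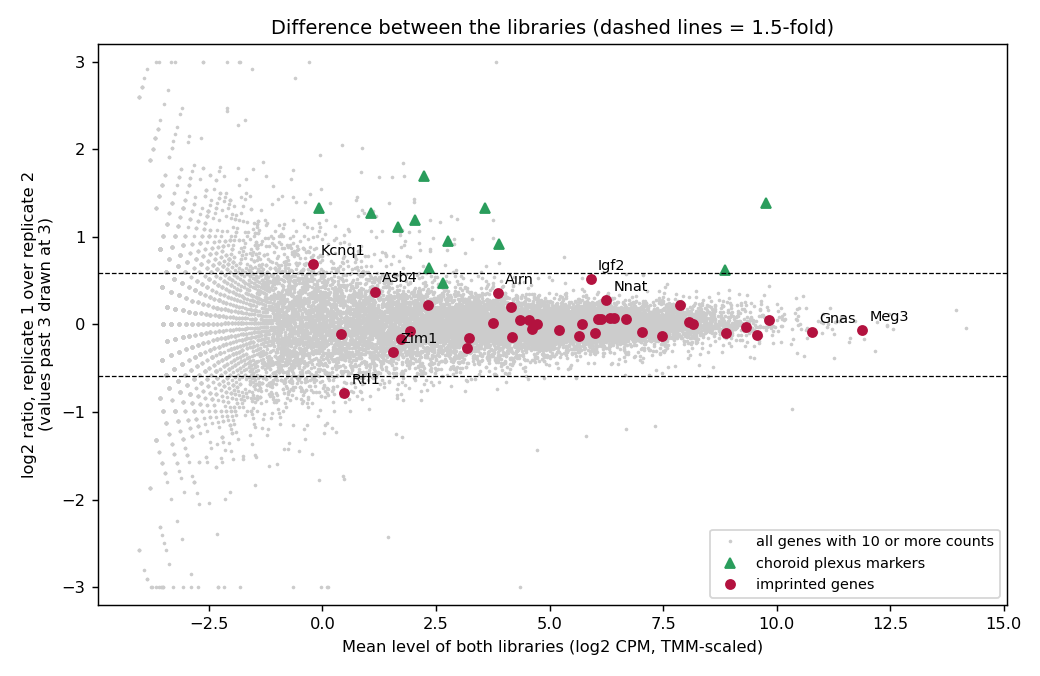
log2 ratio of TMM-scaled counts, replicate 1 over replicate 2, against mean log2 CPM for all genes with 10 or more counts (grey), imprinted genes (red circles) and choroid plexus markers (green triangles). Dashed lines mark 1.5-fold. Kcnq1 (0.69) and Rtl1 (-0.78) lie outside them, Igf2 (0.52) just inside, and 11 of the 12 choroid plexus markers above.

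Further genes of imprinted loci were lower as a list. Among them H13, Mcts2, Bcl2l1, Sfmbt2 and Slc38a4 lie outside the clusters described above, so the list does not consist of neighbours only. Of 39 such genes 36 were measured, 23 of them at 1 TPM or more in both libraries, with a median of 6.50 TPM. Among all protein-coding genes 60.9% reached that level. The highest were Cd81, a tetraspanin gene, at 565 TPM, Nap1l4 at 94.3 TPM, Bcl2l1, an inhibitor of apoptosis, at 91.0 TPM and Adam23 at 77.5 TPM, and the homeobox gene Dlx5 was listed at 0 TPM. Of the 34 with enough counts, 4 (11.8%) were 1.5-fold or more apart between the libraries, against 9.54% of all genes, 2 in each direction. The 24 genes that set or keep imprints had a median of 14.3 TPM, and 20 of them reached 1 TPM in both libraries, against the same 60.9%. The highest were Trim28, the corepressor recruited by ZFP57, at 158 TPM, Ehmt2, a histone H3 lysine methyltransferase, at 115 TPM, Zfp445, a second imprint-keeping zinc finger gene, at 35.2 TPM and the DNA methyltransferase gene Dnmt3a at 29.3 TPM, and the oocyte gene Dppa3 was listed at 0 TPM. Zfp57 itself was at 7.87 TPM and 6.55 TPM, and 0 of the 22 genes with enough counts were 1.5-fold apart.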

How the data were processed

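The 2 libraries of mouse cerebellum were quantified by the authors against mm10 with GENCODE M4, per the file headers and labels. Per gene and per transcript they deposited an expected count, TPM, FPKM, their posterior means and, for transcripts, the percent of the gene's TPM. On mm9 the authors deposited RPKM per Ensembl 65 gene and transcript, counts of reads over splice junctions, and a coverage signal with other values, such as aligned bases, for contigs. Neither aligner nor versions were given in the sources used here. TPM is relative to all entries, spike-ins included. Expected counts were rounded to whole numbers for ratios.

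Names and coordinates came from GENCODE M21, matched for 42462 of 43346 genes. mm9 and mm10 were linked only by identifier or intron length. Ratios are log2 CPM of replicate 1 minus replicate 2 after TMM scaling in edgeR 4.0.16 (R 4.3.3, prior count 2, at least 10 counts over both libraries), tested on simulated data. DESeq2 1.42.0 gave alternative size factors. Intervals are exact (Clopper-Pearson, 95%) and cover counting error only. All 42 matched genes are described. Leading transcripts, those of Gnas, Grb10 and Ube3a at 1% or more, the 4 highest and the lowest gene of each further list and the 3 highest markers are named. Transcripts of Inpp5f beyond its leading one, Zfp57 and second transcripts were added after their values were seen. The members and lists were chosen with earlier results of these data known. With 1 group, no test of a condition was possible.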

Additional observations from a re-analysis of the deposited data

How the results depend on the processing

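The median level over the imprinted genes was 23.4 TPM. It was 15.2 in FPKM and 32.1 in TPM rescaled over genes outside the mitochondrial chromosome, and leaving out either library gave 23.1 to 23.2 TPM. The corresponding medians over all coding genes moved with it, at 4.77 TPM, 3.10 in FPKM and 6.54 rescaled. The count of 2 genes at least 1.5-fold apart was 0 at a 2-fold threshold, where 3.22% of all genes were called, and the ratio of TPM plus 1 named Igf2 and Kcnq1 in place of Rtl1 and Kcnq1, with Rtl1 at a log2 ratio of -0.18. The Gs alpha share of Gnas, 89.7% as a mean by TPM, was 91.2% by junction reads. The share of Grb10-201, 41.5% by TPM, was 49.1% of expected counts, 40.7% of posterior mean TPM and 19.6% of junction reads. The share of ENSMUST00000107537 in Ube3a, 100% in the mm10 tables, which hold 1 Ube3a transcript, was 11.9% by junction reads. The cause of the other differences was not tested. The number of imprinted genes at 1 TPM or more was 36 and stayed within 1.5 times of that under every alternative run. At that limit were the 24 at 1 RPKM or more in the mm9 table, which lists 36 of the 43 genes. RPKM there ran on a lower scale, with Gnas at 154 and 170 RPKM beside 1151 and 1231 FPKM in mm10. The 2 thresholds are therefore unlike. No paired analysis was possible because the libraries form a single group. Posterior mean TPM moved 10 of 42 gene levels by more than the spread between the libraries, Kcnq1 among them. With at least 100 counts, 2.71% of all genes were called. Depth limits Kcnq1, Rtl1, Calcr, Snurf and Phlda2, each with at most 145 counts in a library. For Rtl1 the strand of the counts is uncertain as well.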
